A study of Mus musculus with 26 samples.

Results

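The insulin-like growth factor (Igf) axis is described here through 9 genes: the ligand Igf1, the receptor Igf1r and the binding proteins Igfbp1, Igfbp2, Igfbp3, Igfbp4, Igfbp5, Igfbp6 and Igfbp7. These are 9 of the 54589 genes named in at least 1 of the 3 deposited tables. The set was chosen by a measured value: Igfbp3 had the largest increase in Tex10 knockout testis, and the other family members were added to it. The values in testis are therefore given as a description, with no test of any member. The changes in cultured cells were tested.

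Igf1 is a secreted growth factor that binds Igf1r, a receptor tyrosine kinase. The receptor passes the signal through insulin receptor substrates to phosphatidylinositol 3-kinase and Akt, which keep Foxo transcription factors out of the nucleus. Most Igf in tissue fluid is held by secreted binding proteins. Igfbp1 to Igfbp6 bind Igf tightly, and Igfbp7 is a related protein with weak affinity for it. Proteases that cut the binding proteins release the ligand. In the testis, Igf1 comes mainly from somatic cells such as Leydig and Sertoli cells, and its signal acts on both somatic and germ cells.

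The data are RNA-seq of 26 mouse libraries, from 3 experiments on Tex10. In the first, cells of strain 129Sv/J were sampled as epiblast-like cells (EpiLCs), labelled untreated, and as primordial germ cell-like cells (PGCLCs) at days 2 and 4, with DMSO or with 500 nM dTAG13. The labels give dTAG13, a degrader compound that brings a tagged protein to the cell's ubiquitin machinery, as the means of Tex10 depletion. Each of these 5 groups had 2 libraries. In the second experiment, also 129Sv/J, 1 empty-vector line and 2 Tex10 overexpression clones were each sampled once as EpiLCs and at days 2, 4 and 6 of PGCLC induction. The third comprised testis of the C57BL/6N strain, with 2 wildtype and 2 Tex10 conditional knockout (cKO) libraries. The labels used here do not give the Cre driver, the ages of the mice or the origin of the clones. They also do not say whether numbered libraries came from separate cultures or animals, so p-values measure the spread between these libraries, which may be technical.

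Depth in the tables ranged from 5055362 to 8564563 reads per library. Values are TMM-scaled CPM, reads relative to a library size that was adjusted by the trimmed mean of M values, and on this scale 1 read was worth between 0.0996 and 0.187 and a floor of 3 reads lay between 0.299 and 0.56, for counting error only. Fold changes were computed as differences of log2(value + 1) and are too small for genes at low levels. Each carries the standard error (SE) of its limma fit. The word called is used for genes with a limma p below 0.05 after Benjamini-Hochberg adjustment over all genes tested. The 3 tables were normalized separately, so levels are compared within a table only. Tex10 in the cKO libraries was 29.8 and 27.3, against 79.1 and 44.1 in wildtype. Its mRNA fell by 0.51 (log2) with dTAG13 at day 4 and did not pass the test at day 2 (-0.14), though a change of protein would not be seen here. It rose by 1.47 in the overexpression clones. The day 4 DMSO pair differed most among pairs of 1 group, with a chi-square per gene of 13.6 against 1.81 to 7.48 in the other pairs.

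In testis, 7 of the 8 members in the table were higher in both cKO libraries than in both wildtype libraries. The exception was Igfbp5, and Igfbp1 was not analysed here. For background, 29.1% of the 20658 genes in the fit were past its threshold (limma adjusted p under 0.05) in either direction and 16.1% were past it and higher. These shares use a different measure from the order of the libraries. The share of all genes with both cKO libraries above both wildtype libraries was not computed. The members' median log2 fold change was 1.23, beside 0.01 over all genes tested. As the members were chosen by this contrast, nothing is read from their count or their median.

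Igf1, the ligand, stood at 18.7 and 10.5 in the cKO libraries and at 5.65 and 5.81 in wildtype. The cKO mean was 2.55 times the wildtype mean, with a log2 fold change of 1.16 (SE 0.286). Igf1r, its receptor, was 51.5 and 34.8 in cKO against 16.1 and 16.8 in wildtype, a ratio of means of 2.63 and a log2 fold change of 1.31 (SE 0.196). Igf1 overlaps the antisense gene Igf1os in the annotation. For both genes the wildtype pair lay close together and the cKO pair was spread, with cKO library 1 above cKO library 2.

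Igfbp3, the main carrier of Igf in the circulation, was 28.0 and 10.4 in cKO and 0.685 and 0.942 in wildtype. The wildtype values rest on 10 reads over both libraries, against 283 in the cKO pair. The ratio of means was 23.6, with single-library ratios of up to 40.9, and the log2 fold change was 3.33 (SE 0.393). The spread within the cKO pair was large, and the lower cKO library was 11.1 times the higher wildtype library. This increase is the one that chose the set, so its figures are a description and no test of it. Without cKO library 1 the fold change was 2.66, and without cKO library 2 it was 4.00.

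Igfbp6, which prefers Igf2 over Igf1 as a ligand, was 56.3 and 44.0 in cKO and 13.7 and 10.2 in wildtype (log2 fold change 1.98, SE 0.196). Igfbp7 was 102 and 80.1 in cKO and 36.5 and 36.3 in wildtype (1.29, SE 0.148). In the annotation Igfbp7 overlaps the coding gene Polr2b and the antisense gene Gm34648, both on the opposite strand. No source used here says whether counting used strand, so reads from the shared stretches cannot be told apart. Igfbp2, a binding protein abundant in early embryonic cells, was 15.0 and 12.8 in cKO and 7.70 and 4.39 in wildtype (1.12, SE 0.281). Igfbp4, which mostly restrains Igf action, was 45.6 and 33.0 in cKO and 19.2 and 21.8 in wildtype (0.89, SE 0.186).

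Igfbp5, which also binds the extracellular matrix, was the member with no consistent difference. Its values were 3.06 and 0.635 in cKO and 2.05 and 1.73 in wildtype, so that the wildtype libraries lay between the cKO libraries (log2 fold change -0.16, SE 0.426). At 23 to 27 reads per pair, its direction turned on 1 library: without cKO library 2 it was 0.49. In all 8 members cKO library 1 was above cKO library 2. The share of all genes with this order was not computed, and nothing is read from the count.

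**Figure D1:**
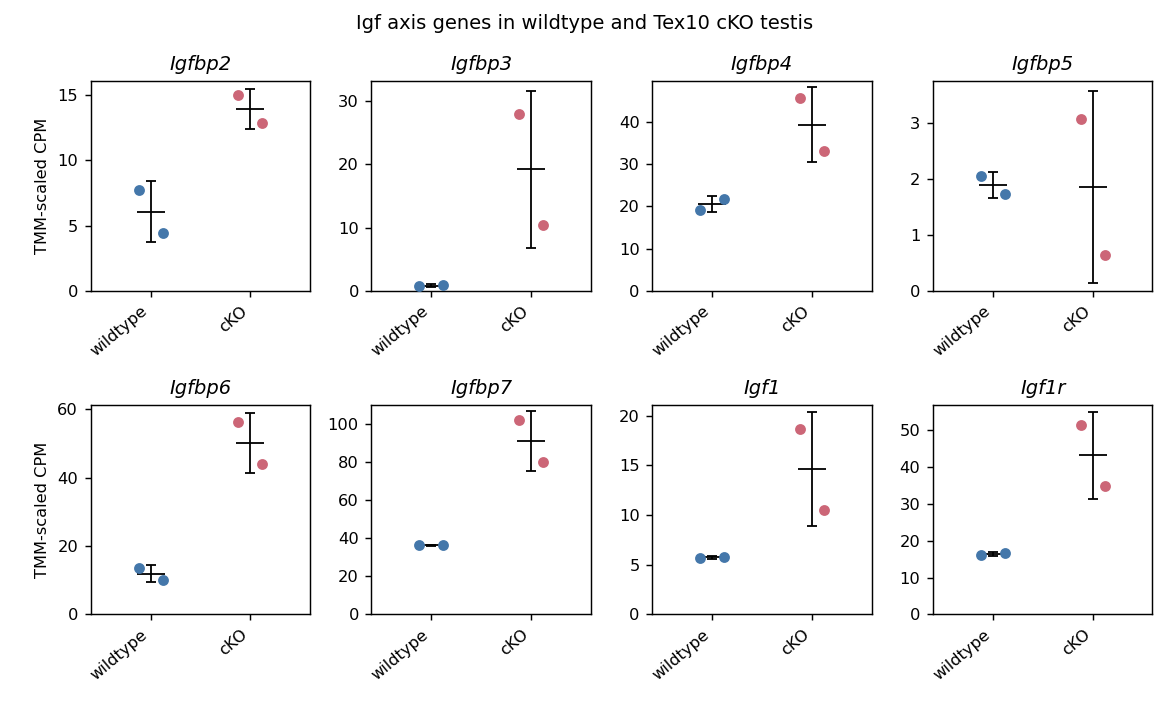
Values of 8 Igf axis genes in testis (y axes, TMM-scaled CPM, from 0, with 1 scale per gene), with 1 point per library in wildtype (blue) and Tex10 cKO (red). Horizontal ticks are means and bars are the SD of 2 libraries. Both cKO points lie above both wildtype points in 7 panels, and the cKO pair straddles wildtype for Igfbp5.

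Marker genes of several testis cell types moved with the same contrast. The summed level of the Sertoli list was 1505 to 1786 in cKO and 515 to 618 in wildtype, with 9 of 9 tested genes higher. The Leydig list summed to 708 to 1127 in cKO and 283 to 398 in wildtype (7 of 8 higher), and the interstitial stroma list to 93.5 to 143 and 30.1 to 32.5 (5 of 6 higher). All 8 genes of the macrophage list summed to 108 to 148 in cKO and 61.1 to 70.5 in wildtype (4 of 7 tested higher). The spermatogonia list summed to 140 to 151 and 80.8 to 93.8 (4 of 8 higher). Peritubular myoid genes summed to 114 to 124 in cKO and 105 to 119 in wildtype, with 2 higher and 1 lower of 6, and endothelial genes to 13.0 to 14.0 and 11.5 to 12.8, with 1 higher and 1 lower of 4. The spermatocyte list summed to 561 to 612 in cKO and 607 to 618 in wildtype, with 2 higher and 1 lower of 8. The spermatid list was lower, at 16261 to 16933 against 22822 to 25600, with 7 of 8 genes lower. Inhba of the Sertoli list and Tie1 and Emcn of the endothelial list were not analysed here, and none of the other listed markers was at 0 in every library. The part of these lists in the values of the Igf axis was not tested, and in whole testis fewer cells of a type and less RNA per cell cannot be told apart.

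Of 39 other genes of the Igf pathway, listed with earlier results known, 33 were in the testis table. In cKO, 10 were past the threshold and higher and 2 were past it and lower, beside the 29.1% of all genes given above. This is the contrast that chose the members, and the counts are a description. The 5 with the largest fold changes were higher: Htra1 (1.84), a secreted protease reported to cut binding proteins, the receptor substrate Irs1 (1.64), the adaptor Grb14 (1.25), the transcription factor Foxo3 (1.23) and the noncoding RNA H19 (1.15). The list's median was 0.39, beside 0.01 over all genes.

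In the dTAG13 experiment 5 of the 9 members passed the filter on low values, a mean of at least 1 over the table: Igfbp2, Igfbp3, Igfbp4, Igfbp5 and Igf1r. Igfbp1 was at 0 in all 10 libraries. Igfbp6 reached at most 0.636, Igfbp7 at most 1.83 and Igf1 at most 1.34, values of between 4 and 17 reads. No change could be read for them at this depth. The ligand of the set was thus at or near the counting floor in most of these cultures, while its receptor was measured well in every library.

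Igfbp2 fell under dTAG13 at both days. At day 2 it was 116 and 108 with DMSO and 45.1 and 48.8 with dTAG13, which is 41.9% of the DMSO mean. The log2 fold change was -1.24 (SE 0.122, limma adjusted p = 1.0e-07). At day 4 it was 118 and 93.0 with DMSO and 24.9 and 28.6 with dTAG13, 25.3% of the DMSO mean (-1.94, SE 0.122, limma adjusted p = 4.4e-11). The groups did not overlap at either day, and the call was kept in each of the 13 alternatives per day. The fold change spanned -1.29 to -1.14 at day 2 and -2.11 to -1.76 at day 4 over them.

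Igfbp3 moved the other way. At day 2 it was 15.1 and 18.9 with DMSO and 27.8 and 30.9 with dTAG13, a ratio of means of 1.73. The increase of 0.76 (SE 0.236) had a limma adjusted p of 0.0162. This call was lost without dTAG13 library 2 (0.69, adjusted p = 0.107), without DMSO library 1 (0.61, adjusted p = 0.149) and with no filter on low values (adjusted p = 0.068). At day 4, both dTAG13 libraries (5.43 and 8.90) were above both DMSO libraries (5.05 and 4.88), but the difference of 0.42 did not pass the test (SE 0.236, 95% interval -0.07 to 0.91, limma adjusted p = 0.163). It was called without dTAG13 library 1 (0.73, adjusted p = 0.0377).

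The promoters of these 2 genes, the members called under dTAG13, are shown for comparison as the 250 bases before the RefSeq start (GRCm38.p6), read on the gene's own strand, with CpG dinucleotides in capitals. Igfbp2 lies on the plus strand of chromosome 1, with its promoter at chr1:72824230-72824479, for the first of 2 starts in the RefSeq table, and Igfbp3 on the minus strand of chromosome 11, with its promoter at chr11:7213924-7214173.
Igfbp2: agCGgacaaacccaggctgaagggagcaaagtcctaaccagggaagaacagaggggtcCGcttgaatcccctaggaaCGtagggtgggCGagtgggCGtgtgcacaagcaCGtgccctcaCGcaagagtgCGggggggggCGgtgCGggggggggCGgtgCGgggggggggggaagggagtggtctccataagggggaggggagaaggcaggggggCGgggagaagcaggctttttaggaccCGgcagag
Igfbp3: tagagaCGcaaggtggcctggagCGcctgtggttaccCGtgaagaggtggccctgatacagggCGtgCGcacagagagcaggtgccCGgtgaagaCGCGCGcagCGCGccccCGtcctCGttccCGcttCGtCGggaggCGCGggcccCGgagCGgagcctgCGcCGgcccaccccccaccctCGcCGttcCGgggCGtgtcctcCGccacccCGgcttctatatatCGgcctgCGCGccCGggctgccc
The Igfbp3 sequence held 32 CpGs at 73.2% G+C and the Igfbp2 sequence 14 at 67.2%, beside a median of 6 CpGs over 32851 promoters of this length. On either strand, GGGCGG (the GC box) was found at 3 places in Igfbp2 and at none in Igfbp3, and it occurs in 32.7% of all promoters. CACGTG was found once in Igfbp2 and not in Igfbp3 (6.02% of promoters), and TATAAA (12.4%) and CCAAT (33.8%) in neither. These are matches of letters and say nothing of a factor's binding.

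The remaining tested members did not pass the test under dTAG13. Igfbp4 at day 2 was 1.51 and 3.80 with DMSO and 1.24 and 2.27 with dTAG13 (-0.36, 95% interval -1.08 to 0.37). At day 4 it was 1.61 and 2.09 with DMSO and 1.03 and 0.318 with dTAG13 (-0.80, 95% interval -1.52 to -0.07, limma adjusted p = 0.0711). These values come from 9 to 40 reads per pair, and the groups overlapped at day 2 but not at day 4. Igfbp4 at day 4 was called with a pseudocount of 0.1 (-1.50, adjusted p = 0.0428) and without dTAG13 library 1 (-1.11, adjusted p = 0.0441).

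Igfbp5 at day 2 was 1.13 and 1.63 with DMSO and 0.777 and 1.87 with dTAG13 (-0.07, 95% interval -0.73 to 0.60). At day 4 it was 0.322 and 0.0996 with DMSO, 4 reads in all, and 0.733 and 0.953 with dTAG13, 11 reads in all (0.61, limma adjusted p = 0.135). At day 4 Igfbp5 was called with a pseudocount of 0.1 (1.69, adjusted p = 0.0282) and by edgeR on recovered reads (2.06, adjusted p = 0.0494), at levels near the floor. Igf1r overlapped between treatments at both days, at 39.9 and 47.8 with DMSO and 27.7 and 45.1 with dTAG13 at day 2 (-0.30, 95% interval -0.67 to 0.08), and 39.5 and 50.9 against 50.7 and 45.8 at day 4 (0.10, 95% interval -0.27 to 0.48). At day 2 it was called without dTAG13 library 2 (-0.64, adjusted p = 0.0176), the library that lay within the DMSO range.

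In all, 2 of the 5 tested members were called at day 2, 1 higher and 1 lower, where 33.6% of all genes tested were called. At day 4, 1 of 5 was called, where 41.8% of all genes were. Beside these backgrounds the counts say nothing of the family as a group. At day 4 the values of all genes had a median change of -0.13 as deposited, and of -0.02 when scaled by median ratios. The change of Igfbp2 at day 4 is far outside this shift.

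The decrease of Igfbp2 was larger at day 4 than at day 2. The difference of its 2 effects was -0.70 (SE 0.173, limma adjusted p = 0.0471), the single member called where 1.25% of all genes were. This call is fragile: it was lost in 13 of 16 alternatives, with adjusted p from 0.0048 to 0.266 over all of them, and the difference spanned -0.87 to -0.53. The adjusted p was 0.0625 with the replicate number as a block. No difference between days was called for Igfbp3 (-0.34), Igfbp4 (-0.44), Igfbp5 (0.68) or Igf1r (0.40).

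**Figure D2:**
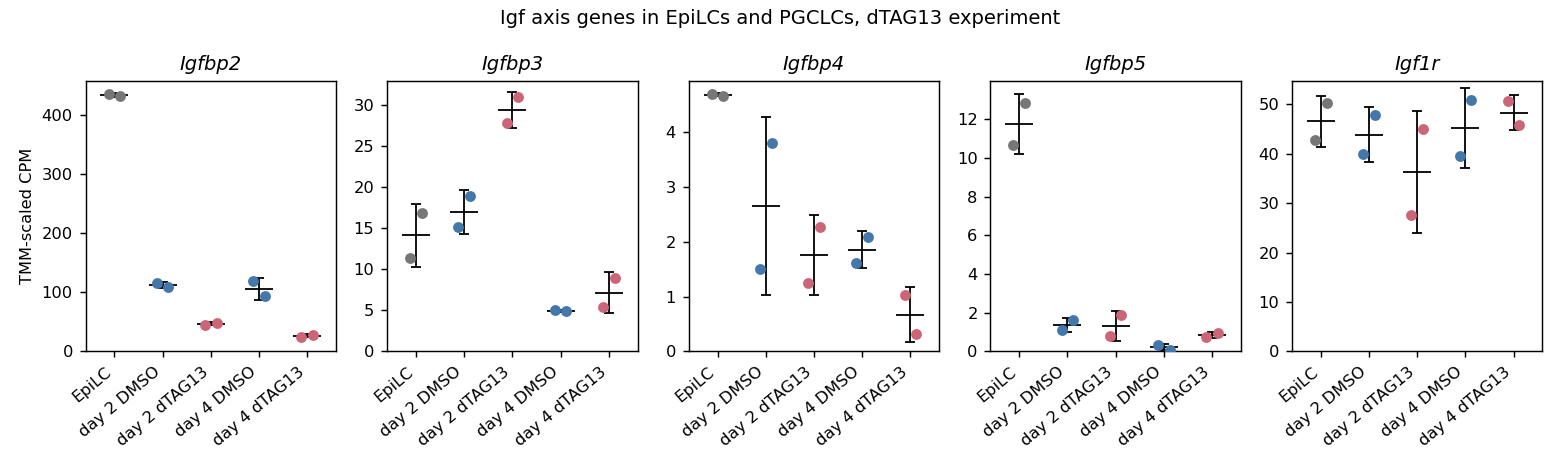
Values of the 5 tested members in the dTAG13 experiment (y axes, TMM-scaled CPM, from 0, with 1 scale per gene) for EpiLCs (grey), DMSO (blue) and dTAG13 (red), 1 point per library. Horizontal ticks are means and bars the SD of 2 libraries. Igfbp2 is at 431 to 436 in EpiLCs and lower with dTAG13 than with DMSO at both days, while Igfbp3 is higher with dTAG13.

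Other measures moved with the dTAG13 contrast. The pluripotency list had 8 of 8 genes lower at both days, and its sum was 2792 to 2956 with DMSO and 1488 to 1623 with dTAG13 at day 2. The mesoderm list had 2 of 3 tested genes higher. All 8 of its genes summed to 20.2 to 21.1 with DMSO and 46.6 to 62.6 with dTAG13 at day 2. At that day the EpiLC list had 2 genes higher and 1 lower of 7. The endoderm list had 1 higher and 1 lower of 4 tested. The PGCLC list had 2 genes higher and 4 lower of 9 at each day. Its sum was 256 to 270 with DMSO and 224 to 235 with dTAG13 at day 2. The X-linked noncoding RNA Xist was 5.02 to 5.41 with DMSO and 250 to 253 with dTAG13 at day 2, beside 129 to 138 in EpiLCs. The part of these in the change of Igfbp2 and Igfbp3 was not tested.

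Among the 39 other pathway genes, 31 passed the filter in this table. At day 2, 10 rose and 5 fell under dTAG13, where 33.6% of all genes were called. The largest changes were those of H19 (2.12), the noncoding RNA of the imprinted locus that also holds Igf2, Irs2 (2.09), Stc2 (-1.79), the RNA-binding protein gene Igf2bp2 (-1.41) and Grb10 (-1.21). At day 4, 9 rose and 7 fell, where 41.8% of all genes were called, led by Irs2 (3.20), H19 (2.59), Stc2 (-2.55), Htra1 (1.71) and Igf2bp2 (-1.33). The list's medians were 0.15 and 0.06, beside -0.09 and -0.13 over all genes.

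Irs2, the substrate that links the receptor to phosphatidylinositol 3-kinase, was 44.9 and 64.5 with DMSO and 216 and 249 with dTAG13 at day 2. At day 4 it was 30.4 and 33.3 with DMSO and 280 and 322 with dTAG13. Its increase was larger at day 4 than at day 2, by 1.11 (SE 0.197, limma adjusted p = 0.0051). The difference between days was also called for Htra1 (1.40, SE 0.297, limma adjusted p = 0.0182). Stc2, a secreted inhibitor of the pappalysin proteases that cut Igfbp4 and Igfbp5, was 10.6 and 15.5 with DMSO and 1.17 and 1.59 with dTAG13 at day 4.

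Without dTAG13, the step from EpiLC to day 2 lowered Igfbp2 and Igfbp5. Igfbp2 went from 436 and 431 in EpiLCs to 116 and 108 (-1.94, SE 0.122, limma adjusted p = 1.3e-10). Igfbp5 went from 10.6 and 12.9 to 1.13 and 1.63 (-2.42, SE 0.321, limma adjusted p = 6.2e-06). EpiLCs were untreated and the day 2 cells had DMSO. Here 2 of 5 members were called, beside 26.2% of all genes. Igfbp4 was 4.69 and 4.65 in EpiLCs and lower in both day 2 libraries, and it did not pass the test (-0.71, limma adjusted p = 0.146). Without DMSO library 2 it did (-1.18, adjusted p = 0.0484). Igfbp3 (11.4 and 16.8 in EpiLCs, change of 0.27) and Igf1r (42.8 and 50.2, change of -0.09) overlapped between the stages and were not called.

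Igfbp2 and Igfbp5 are neighbours, facing each other 5458 bp apart on chromosome 1 (GRCm38, GENCODE vM21, Igfbp2 at chr1:72824503-72852474 and Igfbp5 at chr1:72857932-72874884). Igfbp1 and Igfbp3 lie 3540 bp apart on chromosome 11 (chr11:7197782-7202546 and chr11:7206086-7213923). The other members lie apart from each other, Igfbp4 at chr11:99041244-99054392, Igfbp6 at chr15:102144362-102149511, Igfbp7 at chr5:77349240-77408041, Igf1 at chr10:87858265-87937042 and Igf1r at chr7:67952827-68233668. Igfbp1 stayed at 0 in all 10 libraries where Igfbp3 was between 4.88 and 30.9.

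From day 2 to day 4 with DMSO, Igfbp3 fell from 15.1 and 18.9 to 5.05 and 4.88 (-1.58, SE 0.236, limma adjusted p = 1.6e-04). It was the only member called of 5, beside 5.52% of all genes, and the call was kept in all 13 alternatives. Igfbp5 fell short of the threshold (-0.97, limma adjusted p = 0.0838), with both day 4 libraries below both day 2 libraries. It passed the threshold with a pseudocount of 0.1 (-2.33, adjusted p = 0.0239), by edgeR (-2.67, adjusted p = 0.0296) and by DESeq2 (-2.77, adjusted p = 0.0434). Igfbp2 (-0.09), Igfbp4 (-0.29) and Igf1r (0.04) overlapped between the days.

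In the overexpression experiment the same 5 members passed the filter. Igfbp1 had 1 read, in the day 6 empty-vector library. Igfbp6 reached at most 0.488 and Igf1 at most 0.728. Igfbp7 had 1 read over the 4 empty-vector libraries (0.151, at day 6) and values from 0 to 1.60 in the 8 clone libraries, the highest at day 6 (0.977 and 1.60). These levels are close to the floor of 3 reads and carried no test.

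Igfbp5 was the only tested member called with overexpression. In EpiLCs its values were 15.5 with empty vector and 16.3 and 14.3 in clones 1 and 2. At day 2 they were 2.01 against 0.154 and 1.06, at day 4 13.9 against 2.67 and 1.31, and at day 6 19.7 against 11.6 and 8.45. Both clones were thus below the empty-vector line at 3 stages and on either side of it in EpiLCs. The day 2 values rest on 14 reads with empty vector, 1 read in clone 1 and 7 reads in clone 2. Clone 1 was there below the floor of 3 reads. Over the 4 stages the change was -1.07 (SE 0.240, limma adjusted p = 0.0042), 1 of 5 members called where 8.76% of all genes were. The call was lost without the day 4 libraries (-0.64, adjusted p = 0.105), with no variance trend (adjusted p = 0.108) and with no filter (adjusted p = 0.0827). There was 1 empty-vector line, so the 4 stages took the place of replicates and variation among control lines is unknown. The fit had no term for line, so repeated libraries of the same clone counted as independent, which the p-value does not allow for. The mesoderm list (1 of 5 tested genes called, lower) summed at day 4 to 74.6 in empty vector and 39.2 to 40.3 in the clones. At day 6 it summed to 49.7 and 33.7 to 37.4. At day 2 the clone sums of the mesoderm list, 19.1 to 24.8, lay on either side of empty vector. The EpiLC list (1 of 7 called, lower) was below empty vector in both clones at days 2, 4 and 6. At day 2 it summed to 614 in empty vector and 448 to 460 in the clones. In EpiLCs its clone sums lay on either side of empty vector. The endoderm list (1 of 4 tested genes called, lower) summed at day 2 to 9.91 in empty vector and 5.60 to 5.85 in the clones. Its clone sums were also lower in EpiLCs, on either side of empty vector at day 4 and higher at day 6. The mesoderm and endoderm sums are over all 8 genes of each list. The pluripotency list had 2 genes higher and 1 lower of 8, and the PGCLC list 1 higher of 9. The part of any of these lists in the change was not tested.

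Igfbp3 was below the empty-vector line in both clones at 3 of 4 stages and did not pass the test (-0.34, SE 0.133, 95% interval -0.61 to -0.06, limma adjusted p = 0.121). From EpiLC to day 6, the empty-vector values were 23.0, 28.3, 25.3 and 16.6. Those of clone 1 were 18.8, 33.3, 18.5 and 9.60, and those of clone 2 were 15.5, 26.8, 14.0 and 15.9. Igfbp2 (-0.04, 95% interval -0.21 to 0.12), Igfbp4 (-0.13, -0.51 to 0.25) and Igf1r (-0.02, -0.20 to 0.17) were not called. For these 3 genes the side on which the clones lay changed with the stage.

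**Figure D3:**
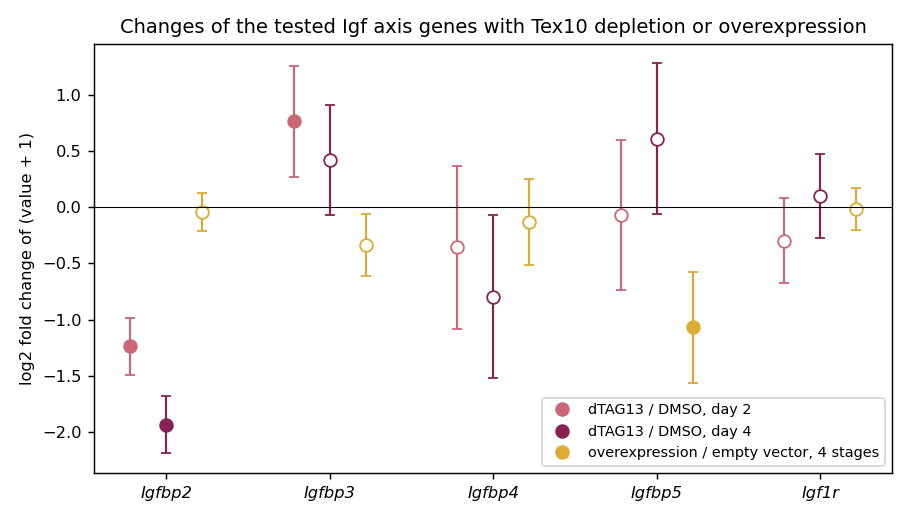
Log2 fold changes of (value + 1) for the 5 tested members (y axis) with dTAG13 at day 2 and day 4 and with Tex10 overexpression over 4 stages. Bars are 95% intervals of the limma fit, and filled points are changes called at an adjusted p under 0.05. Igfbp2 is called at both days of dTAG13 (-1.24 and -1.94), Igfbp3 at day 2 (0.76) and Igfbp5 with overexpression (-1.07).

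The pathway list had 2 genes higher and 4 lower of 33 tested with overexpression, where 8.76% of all genes were called. Those in which both clones lay on the same side of the empty vector at every stage were Grb10 (-3.41), an adaptor that inhibits the receptor, Irs2 (-0.91) and Igf2bp3 (0.21). Irs2 was 56.2, 67.2, 96.6 and 62.9 from EpiLC to day 6 in the empty-vector line. It lay between 28.0 and 43.3 in the 8 clone libraries.

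The steps between stages were read over all 3 lines together. From EpiLC to day 2, 4 of 5 members were called, beside 46.3% of all genes. Igfbp2 fell from 368, 314 and 314 (empty vector, clone 1, clone 2) to 166, 201 and 237 (-0.73, SE 0.112, limma adjusted p = 4.1e-06). Igfbp5 fell in every line (-3.08, SE 0.327, limma adjusted p = 6.2e-09). Igfbp3 rose by 0.61 (limma adjusted p = 0.0068). Igf1r rose by 0.51 (limma adjusted p = 0.0013), from 42.4, 61.7 and 61.8 to 84.0, 74.4 and 76.6. Igfbp4 was not called (-0.17, 95% interval -0.69 to 0.35). The call for Igfbp3 was lost without clone 1 (adjusted p = 0.0628) and without clone 2 (adjusted p = 0.0532).

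From day 2 to day 4, 3 of 5 were called, beside 23% of all genes. Igfbp3 fell (-0.62, limma adjusted p = 0.0136), as it did between these days with DMSO. Igfbp4 rose by 0.89 (limma adjusted p = 0.0114), from 7.47, 6.62 and 4.84 to 18.5, 9.02 and 11.2. Igfbp5 rose by 1.38 (SE 0.327, limma adjusted p = 0.0024). The rise was steep in the empty-vector line, from 2.01 to 13.9. Clone 1 went from 0.154 on 1 read to 2.67 on 16 reads. The rise was small in clone 2, from 1.06 to 1.31 on 7 reads at each day. Igf1r was not called (0.17, 95% interval -0.08 to 0.43). With the line left out of the fit, Igfbp3 (adjusted p = 0.0548) and Igfbp5 (adjusted p = 0.0552) were not called. The calls also depended on single lines: Igfbp3 was lost without clone 1 (-0.52, adjusted p = 0.122) and without clone 2 (-0.48, adjusted p = 0.164), Igfbp4 without clone 2 (adjusted p = 0.0867) and Igfbp5 without clone 1 (adjusted p = 0.06). Without the empty-vector line Igfbp2 was called (-0.38, adjusted p = 2.0e-05).

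From day 4 to day 6, 2 of 5 were called, beside 6.88% of all genes. Igfbp2 rose by 0.72 (SE 0.112, limma adjusted p = 1.0e-04), from 235, 165 and 170 to 289, 335 and 307. Igfbp5 rose by 1.43 (SE 0.327, limma adjusted p = 0.0061), to 19.7 in empty vector and 11.6 and 8.45 in the clones. Without clone 1 both calls were lost (0.57, adjusted p = 0.0633, and 1.25, adjusted p = 0.149), and without clone 2 that of Igfbp5 was lost (1.12, adjusted p = 0.118). Igf1r (0.07), Igfbp4 (0.57) and Igfbp3 (-0.43) were not called, although Igfbp4 had reached 20.8, 20.8 and 15.4 by day 6. Igfbp4 was called without the empty-vector line (0.78, adjusted p = 0.0336).

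**Figure D4:**
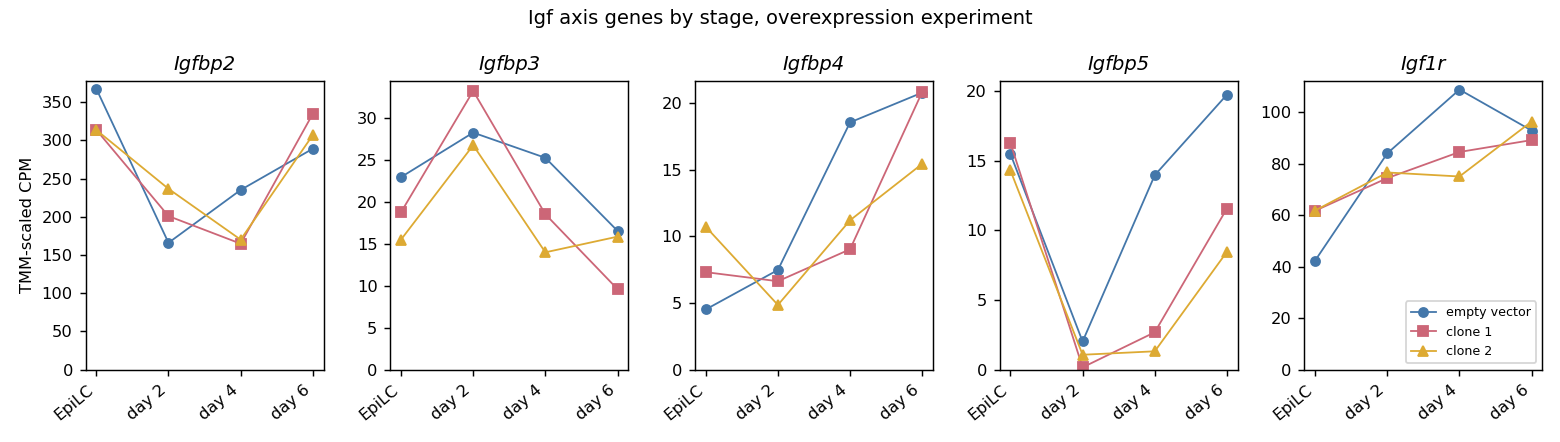
Values of the 5 tested members (y axes, TMM-scaled CPM, from 0) at 4 stages (x axis) in the empty-vector line (blue circles), clone 1 (red squares) and clone 2 (yellow triangles), 1 library per point and no error bars. Igfbp2 and Igfbp5 dip after the EpiLC stage and are higher again at day 6, and the clones lie under the empty-vector line for Igfbp5 from day 2 on.

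Over the 2 culture tables, Cerk, Speg, Arrb1 and Kif1a were among the genes whose levels followed those of Igfbp3 most closely. The measure was the lower of 2 Pearson correlations of log2 values, over 10 libraries and over 12 libraries, among 14388 genes. For Cerk, ceramide kinase, the correlations were 0.851 and 0.892. They were 0.953 and 0.839 for Speg, 0.952 and 0.830 for Arrb1, and 0.817 and 0.830 for Kif1a. The libraries share stages and treatments, so these figures describe a common pattern only.

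Side by side, the family showed no single direction across the 3 experiments. Igfbp2 was higher in cKO testis (log2 fold change 1.12) and lower in dTAG13-treated PGCLCs (-1.24 and -1.94). Igfbp3 was higher in cKO testis (3.33) and rose with dTAG13 at day 2 (0.76), and its value at day 4 was 0.42 without a call. Igfbp6, Igfbp7 and Igf1 had 70 to 1363 reads per pair in testis and too few in culture for a test. Igf1r was higher in cKO testis (1.31), and under dTAG13 its values of -0.30 and 0.10 did not pass the test. Igfbp4 was higher in cKO testis (0.89) and was not called under dTAG13 (-0.36 and -0.80). Igfbp5 was -0.16 in testis and was not called under dTAG13 (-0.07 and 0.61). With overexpression Igfbp5 was lower (-1.07), and no other tested member was called. The testis values are of whole tissue and carry no test.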

How the data were processed

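RNA was extracted with Trizol and made into libraries with a NuGEN Ovation Mouse kit (dTAG13 and testis) or a Tecan Universal Plus mRNA kit (overexpression), per the labels. Bowtie2 2.3.4.3, SAMtools 1.9, HTSeq 0.11.2, edgeR 3.26.8 and mm10 are listed per the submitters' processing notes, with no role. The annotation and the strand of counting are not given in the sources used here. The deposited values are a signal that the authors scaled by TMM, per the file headers and names. Values were whole multiples of a step within each library (100% within 0.01 read), which gave the reads. In day 4 DMSO replicate 2 the step was 0.0996, too near 0.1 to tell reads from rounding, and it was treated like the others. The tables' own fold changes and p-values were not used.

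limma 3.58.1 (R 4.3.3) with a variance trend was fitted to log2(value + 1) for genes whose mean in the table was 1 or more, with every library of the table in the fit: 16605 genes (dTAG13), 15255 (overexpression, with stage or line as covariate) and 20658 (testis). P-values were adjusted within each of 10 comparisons by the Benjamini-Hochberg method. The design had allowed for raw counts, but the values were scaled, so edgeR 4.0.16 and DESeq2 1.42.0 on recovered reads served as alternatives. Other alternatives were a pseudocount of 0.1, a minimum mean of 5 or none, median-ratio scaling, no trend, the replicate block, only the compared groups, and leaving out libraries. The fits were tested on simulated data. The members, the pathway list and the marker lists were chosen with earlier results of these data known. The members in each table are named in each comparison (those below the filter once per table), with the 5 largest called changes of the pathway list whose groups did not overlap, and the genes most like Igfbp3. Some results that this rule would name are not reported here. Positions are from GENCODE vM21 and promoters from RefSeq (GRCm38.p6), in which all 9 members were found.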

Additional observations from a re-analysis of the deposited data

Results flagged for a closer look

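The effect of dTAG13 on Igfbp2 differed between days, by -0.70 on the log2 scale (day 4 minus day 2, limma adjusted p = 0.0471). The call was lost in 13 of 16 alternatives, with adjusted p up to 0.266, the replicate block among them (0.0625).

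In the overexpression experiment, both clones moved to opposite sides of the empty-vector line at different stages for 3 members. The differences between stages were not tested. For Igfbp2 the mean log2 difference of the clones from empty vector was -0.23 in EpiLCs, 0.39 at day 2, -0.49 at day 4 and 0.15 at day 6. For Igfbp4 it was 0.84 in EpiLCs, -0.34 at day 2 and -0.82 at day 4. For Igf1r it was 0.53 in EpiLCs, -0.15 at day 2 and -0.45 at day 4.

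From day 2 to day 4, the log2 values of Igfbp5 had opposite signs in the 2 culture experiments. With DMSO the value was -0.97, which did not pass the test (limma adjusted p = 0.0838), though both day 4 libraries were below both day 2 libraries. In the vector lines it was 1.38, a call lost in 4 of 11 alternatives. The value was higher at day 4 in each line, but it rested on 1 read at day 2 in clone 1 and on 7 reads at each day in clone 2. The difference was not tested, and the library kits and tables differed between the experiments.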

How the results depend on the processing

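The calls for Igfbp2 under dTAG13 at both days, for Igfbp2 and Igfbp5 from EpiLC to day 2 in both tables, for Igf1r from EpiLC to day 2 in the vector lines and for Igfbp3 from day 2 to day 4 with DMSO were kept in every alternative run. Alternatives with a minimum mean of 5 gave no value for Igfbp4 and Igfbp5 in the dTAG13 table and for Igfbp5 in testis. No cause was tested. Members called went from 2 to 1 (dTAG13, day 2) with no filter, from 1 to 3 with a pseudocount of 0.1 and to 2 with edgeR (dTAG13, day 4), from 2 to 1 with a minimum mean of 5 (EpiLC to day 2), and from 1 to 2 with a pseudocount of 0.1, edgeR or DESeq2 (DMSO, day 2 to day 4). For the difference between days they went from 1 to 0 with a pseudocount of 0.1, no filter, median-ratio scaling, no trend or edgeR. For overexpression they went from 1 to 0 with no filter or no trend. In the vector lines they went from 3 to 0 (day 2 to day 4) with no filter or no trend, and from 2 to 1 with no filter or DESeq2 and to 0 with no trend (day 4 to day 6).

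Genes called over the whole table went from 208 to 16 with no filter and, by limma with no trend, to 0 (difference between days, where 1898 had an unadjusted p under 0.05, edgeR called 248 and DESeq2 281), from 916 to 341, 445 and, with only the compared groups, 551 (DMSO, day 2 to day 4), from 1337 to 642 and 431 (overexpression), from 1049 to 476 and 276 (day 4 to day 6). With no trend they went from 3509 to 2238 (day 2 to day 4, vector lines) and from 6016 to 2135 (testis).

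Leaving out 1 library, stage or line at a time, the members called ranged over 1 to 2 (dTAG13, day 2), 1 to 3 (dTAG13, day 4), 0 to 1 (difference between days), 0 to 1 (overexpression), 1 to 4 (vector lines, day 2 to day 4), 0 to 3 (vector lines, day 4 to day 6). The genes called ranged over 3603 to 4208 (dTAG13, day 2), 44 to 366 (difference between days), 2496 to 3098 (DMSO, EpiLC to day 2), 425 to 1104 (DMSO, day 2 to day 4), 413 to 1392 (overexpression), 1564 to 4080 (vector lines, day 2 to day 4), 255 to 1427 (vector lines, day 4 to day 6), 3148 to 6085 (testis, the lowest without cKO library 1). Among members with a reversal, Igf1r (dTAG13, day 2) and Igfbp2 (vector lines, day 2 to day 4) were each called in 1 alternative. The reversals all concerned fold changes that were not called in the main fit. When libraries were left out these ranged over Igfbp4 -0.82 to 0.11 (dTAG13, day 2), Igfbp5 -0.41 to 0.28 (dTAG13, day 2), Igf1r -0.64 to 0.046 (dTAG13, day 2), Igf1r -0.077 to 0.28 (dTAG13, day 4), Igfbp4 -0.91 to 0.027 (difference between days), Igf1r -0.21 to 0.042 (DMSO, EpiLC to day 2), Igfbp2 -0.26 to 0.081 (DMSO, day 2 to day 4), Igfbp4 -0.76 to 0.18 (DMSO, day 2 to day 4), Igf1r -0.14 to 0.22 (DMSO, day 2 to day 4), Igfbp2 -0.19 to 0.10 (overexpression), Igfbp4 -0.46 to 0.10 (overexpression), Igf1r -0.20 to 0.13 (overexpression), Igfbp4 -0.56 to 0.25 (vector lines, EpiLC to day 2), Igfbp2 -0.38 to 0.11 (vector lines, day 2 to day 4), Igf1r -0.075 to 0.22 (vector lines, day 4 to day 6), Igfbp5 -0.82 to 0.49 (testis). Igfbp5 under dTAG13 at day 2 was 0.073 by edgeR and 0.073 by DESeq2, and Igf1r from day 2 to day 4 with DMSO was -0.0012 after median-ratio scaling.

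Deviations of same-numbered libraries had correlations of -0.07 to 0.12 in 5 comparisons of 2 pairs each. With so few libraries these cannot decide whether replicate numbers pair them. In testis the replicate block took the genes called from 6016 to 7185. Under the replicate block, members called for the difference between days went from 1 to 0. With no replicate block for the line in the vector-line fits, members called went from 3 to 1 (day 2 to day 4) and from 2 to 1 (day 4 to day 6), and genes called at the last step from 1049 to 498. The overexpression fit matched the libraries by stage, and no replicate block could be added because the empty-vector line has no number. Depth limits Igfbp1, Igfbp6, Igfbp7 and Igf1 in culture, where 81 of 88 values are of 5 reads or fewer, and Igfbp5 at day 4 with DMSO.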
